A study of Mus musculus with 8 samples.

Results

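The genes described here are 9 transcription factors that specify the neural crest, namely Tfap2a, Tfap2b, Foxd3, Snai2, Twist1, Ets1, Sox8, Sox9 and Sox10. They were chosen by name, and every non-control probe whose RefSeq accession belongs to one of them was taken. This gave 11 of the 55681 probes on the array and 9 of its 20660 RefSeq genes. A probe entered the tests when at least 4 of the 8 arrays had it well above background and no dimmer than their 20th percentile, which held for 29718 probes. Of the neural crest regulators, 8 genes with 10 probes passed this filter, each well above background on all 8 arrays, and Sox8 did not.

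Whole mouse embryos of embryonic day 8.5 were profiled, 1 embryo per array, and the comparison asks whether the genotype of the father leaves a mark on offspring that have the same genotype. The father was either homozygous (HOM father, Eed hypo/hypo) or heterozygous (HET father, Eed hypo/wt) for a hypomorphic allele of Eed, Eedl7Rn5-1989SB, on a C57bl6/129 background. Eed is a core subunit of Polycomb repressive complex 2, which places trimethylation on lysine 27 of histone H3. Mothers were wild type and all 8 embryos carried 1 hypomorphic allele from the father, so neither group is a wild-type control. Each group had 2 female and 2 male embryos, matched for stage and size. The fathers were littermate pairs of a HOM and a HET brother, fewer in number than the embryos, so some embryos share a father. Which pair each embryo came from is not stated, so the comparison by father does not take the pairs into account. Sample identifiers in the deposited data start with a number that HOM father replicates 3 and 4 share, as do HET father replicates 1 and 2. What this number stands for is not stated. With it as a random block 0 regulators were called by father at either limit, and the p-values below, which leave it out, may rest on embryos that are not all independent.

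The fraction of spots well above background was 51.9 to 60.8% over the 8 arrays, with 0 saturated spots. Of the 1541 probes above background on exactly 1 array of each group, 1038 were so on the 2 arrays numbered 1, which lay in a different row of their slides from the other arrays. Without these 2 arrays the count of regulators called by father was 0, as with all 8. All embryos of HOM fathers were on 1 slide and all of HET fathers on another, so slide and father cannot be told apart in any comparison by father. HOM father replicate 2 stood apart from the other 7 embryos in markers of the neural tube and trophoblast, as described with the regulators below. Results that rest on it are given with and without it.

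Neural crest cells arise at the border of the neural plate, leave the neural tube by an epithelial to mesenchymal transition and migrate to form the skeleton of the face, the peripheral neurons and glia, and pigment cells. At the stage studied, the cranial crest is delaminating and migrating while the trunk crest has yet to form. Tfap2a, Tfap2b and Foxd3 specify the crest, Snai2, Twist1 and Ets1 act in its delaminating or mesenchymal cells, and the SoxE factors Sox8, Sox9 and Sox10 carry the program forward. Many of these genes are also expressed elsewhere in the embryo: Snai2 and Twist1 in mesoderm, Ets1 in endothelium, Sox9 in cartilage precursors and the otic placode. In a whole embryo, fewer cells of a type and less RNA per cell cannot be told apart.

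The promoters of 5 of the 9 genes (Tfap2a, Tfap2b, Foxd3, Twist1 and Sox8) were in the RefSeq promoter table used here (build GRCm38.p6). The upstream 250 bases are shown for Tfap2a and Tfap2b, 2 closely related factors of which Tfap2b and the brighter Tfap2a probe were lowest in the same embryo, and for Twist1, the gene whose probe came nearest to the threshold among those standing for their gene. Tfap2a has 2 start sites in the table, and the array has 2 Tfap2a probes, for different transcripts, that differed in direction by father. Which probe reads from which start was not determined. Every CG dinucleotide, the substrate of CpG methylation and a feature of Polycomb target promoters, is in capitals, 5′ to 3′ on the strand of the gene.
Tfap2a, upstream start, chr13:40734921-40735170, minus strand: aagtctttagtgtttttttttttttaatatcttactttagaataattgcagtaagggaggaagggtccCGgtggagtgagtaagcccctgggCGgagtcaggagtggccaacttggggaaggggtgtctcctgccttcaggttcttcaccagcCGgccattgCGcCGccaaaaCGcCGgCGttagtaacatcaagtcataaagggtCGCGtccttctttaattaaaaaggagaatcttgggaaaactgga
Tfap2a, downstream start, chr13:40733796-40734045, minus strand: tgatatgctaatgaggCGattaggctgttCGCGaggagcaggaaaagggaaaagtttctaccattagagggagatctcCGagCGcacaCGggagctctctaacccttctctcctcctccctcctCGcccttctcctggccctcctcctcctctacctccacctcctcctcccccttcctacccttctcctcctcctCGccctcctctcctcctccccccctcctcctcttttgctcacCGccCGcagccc
Tfap2b, chr1:19211804-19212053, plus strand: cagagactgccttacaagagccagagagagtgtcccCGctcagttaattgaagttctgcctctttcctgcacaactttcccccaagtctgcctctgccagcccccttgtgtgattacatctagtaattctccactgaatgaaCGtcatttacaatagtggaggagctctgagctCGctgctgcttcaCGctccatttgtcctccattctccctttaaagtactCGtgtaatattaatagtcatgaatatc
Twist1, chr12:33957421-33957670, plus strand: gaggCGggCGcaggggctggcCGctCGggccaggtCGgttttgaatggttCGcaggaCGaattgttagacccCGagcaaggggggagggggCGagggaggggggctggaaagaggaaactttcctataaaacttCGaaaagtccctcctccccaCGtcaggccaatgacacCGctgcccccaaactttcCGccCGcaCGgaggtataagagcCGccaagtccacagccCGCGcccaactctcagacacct

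Twist1 had 18 CpG in these 250 bases, each Tfap2a start had 10 and Tfap2b had 5, against a median of 6 over the 32851 promoters in the table. Foxd3 had 21 and Sox8 had 18. Of the motifs searched on both strands, the Twist1 window held TATAAA once, which 12.4% of all the promoters hold. It also held the CCAAT box (CCAAT) once, as 33.8% of the promoters do. The GC box (GGGCGG), found in 32.7% of the promoters, occurred once in the Twist1 window and once in each Tfap2a window. CANNTG, the E-box that Twist1 and Snai2 bind, was found once in the windows of Tfap2b, Foxd3 and Sox8, and 66.2% of all the promoters hold it. The matches describe the letters of the windows only.

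No neural crest regulator was called by father. At the limits of the study, an adjusted p below 0.01 and at least 2-fold, 0 of the 8 tested genes passed, where 1.27% of all tested probes did (limma, Benjamini-Hochberg over all 29718). At an adjusted p below 0.05 with no fold limit it was again 0 of 8, where 21% of all tested probes passed, 12.3% higher and 8.69% lower in the offspring of HOM fathers. Without Benjamini-Hochberg adjustment, Twist1 and the dimmer Tfap2a probe had p below 0.05, with adjusted p of 0.0704 and 0.0644. The median change of the 8 genes was 0.0041 on the log2 scale, against -0.02 for all tested probes, with 4 genes above 0 and 4 below. Directions near 0 depend on the scaling of the arrays. When arrays were scaled to their medians, the median of all tested probes moved to -0.21 and that of the 8 genes to -0.19, and at the 0.05 limit 2338 probes were higher and 10351 lower, against 3660 and 2583 with the 75th percentile. Tfap2a, on its brighter probe, then passed that limit (-0.30, adjusted p = 0.0236). With the 75th percentile scaling, the 95% interval of every tested probe of the regulators lay within 2-fold in either direction. The farthest bound was -0.83 for Sox10, whose difference was -0.37 with this scaling and -0.56 under median scaling.

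**Figure D1:**
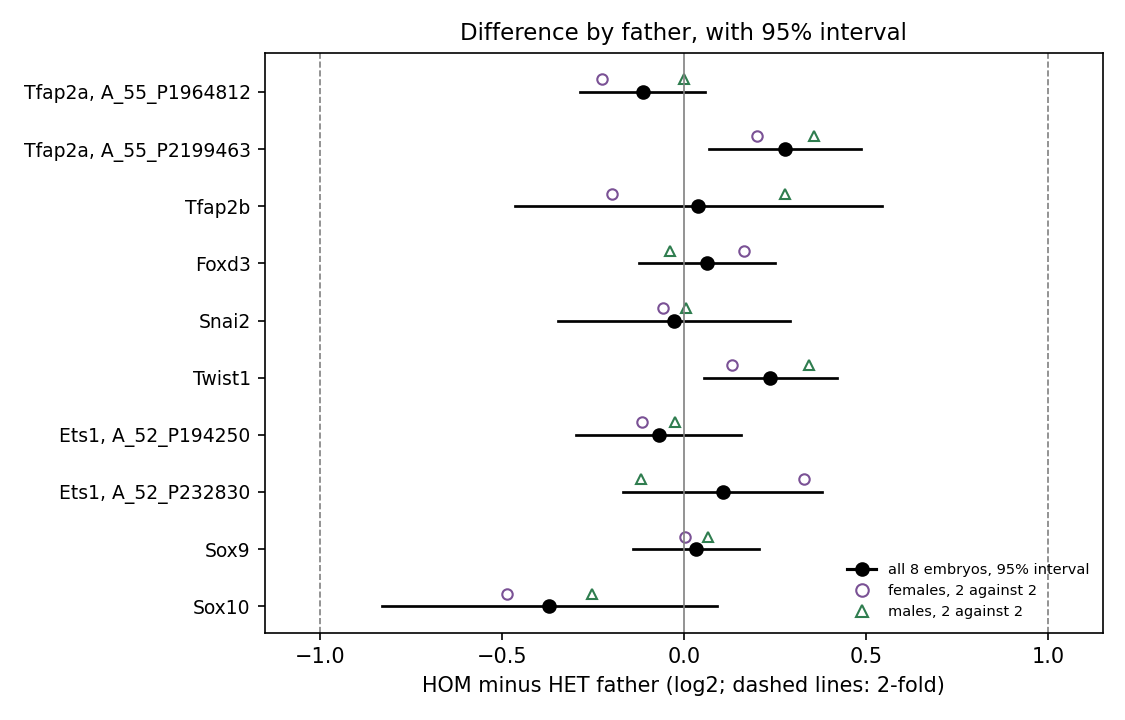
Fitted difference by father (log2, HOM minus HET father) of the 10 tested probes of the neural crest regulators. Black points and bars are the limma estimate and its 95% interval over 8 embryos, open symbols are the difference within the 2 female and the 2 male embryos of each group, and dashed lines mark 2-fold. The intervals of Twist1 and of Tfap2a probe A_55_P2199463 lie above 0, before adjustment over all probes, and that of Sox10 reaches lowest.

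The signal of a probe is given as log2 of the processed intensity minus the 75th percentile of its array, so 0 stands for that percentile. Such values compare embryos for 1 probe and do not rank genes against each other. The 4 embryos of each group are numbered by their labels: HOM father replicates 1 and 2 and HET father replicates 1 and 3 were female, the others male.

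Tfap2a, an AP-2 factor that acts at the neural plate border and again in the crest that leaves it, was read by 2 probes. On the brighter, A_55_P1964812, the embryos of HOM fathers had 1.09, 0.85, 1.07 and 1.14 and those of HET fathers 1.18, 1.05, 1.21 and 1.16 in replicates 1 to 4. The HOM father replicate 2 was the lowest of the 8 and the other 7 lay close together. The difference was -0.11 (95% interval -0.28 to 0.06, adjusted p = 0.322, limma). It was -0.05 with HOM father replicate 2 left out (adjusted p = 0.552, limma). On the dimmer probe, A_55_P2199463, designed to another transcript, the values were -3.60, -3.52, -3.32 and -3.27 against -3.65, -3.67, -3.86 and -3.64. Every HOM father embryo was above every HET father embryo, as on 14.1% of all tested probes, and on a further 13% every HOM father embryo was below. The difference on this probe was 0.28, or 1.21-fold (95% interval 0.07 to 0.49, adjusted p = 0.0644, limma). It passed 0.05 with sex as a covariate (adjusted p = 0.0315) and without HOM father replicate 1 (0.33, adjusted p = 0.0468). It shrank to 0.087 under median scaling (adjusted p = 0.330), 0.13 under quantile normalisation (adjusted p = 0.199) and 0.17 with normexp (adjusted p = 0.244). The processed intensity of this probe was between 91.9 and 163 on the 8 arrays, against 2827 to 3433 for the brighter one.

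Tfap2b, the AP-2 relative that overlaps with Tfap2a in the cranial crest, had -0.38, -1.43, -0.52 and -0.52 in the offspring of HOM fathers and -0.74, -0.80, -0.68 and -0.80 in those of HET fathers. The HOM father replicate 2 was the lowest of all 8 embryos, and the other 3 of its group were the highest. With all embryos the difference was 0.04 (95% interval -0.46 to 0.54, adjusted p = 0.921, limma). Without HOM father replicate 2 it was 0.28 (adjusted p = 0.0208, limma), so the call rested on that embryo. Leaving out any other HOM father embryo gave between -0.07 and -0.02, and median scaling gave -0.15.

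Foxd3, a forkhead repressor that marks premigratory crest and keeps it multipotent, had -1.18, -1.07, -1.24 and -1.02 in the offspring of HOM fathers and -1.29, -1.18, -1.28 and -1.01 in those of HET fathers. The groups overlapped throughout, with replicate 4 highest in both. The difference was 0.06 (95% interval -0.12 to 0.25, adjusted p = 0.619, limma), and -0.13 under median scaling.

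Among the genes of delamination and mesenchyme, Twist1, a bHLH factor required in the cranial mesenchyme, had 1.13, 0.98, 1.23 and 1.21 in the embryos of HOM fathers and 0.93, 0.75, 0.92 and 1.01 in those of HET fathers. The 3 highest embryos were all of HOM fathers, and HOM father replicate 2 lay below the HET father replicate 4. The difference was 0.24, or 1.18-fold (95% interval 0.05 to 0.42, adjusted p = 0.0704, limma), with 0.13 among females and 0.34 among males. Without HOM father replicate 2 it was 0.29 (adjusted p = 0.0353), and with an intensity trend and robust variance the adjusted p was 0.0494. The size depended on the scaling, at 0.046 under median scaling (adjusted p = 0.681), and was 0.16 with normexp background correction (adjusted p = 0.156).

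Snai2, a zinc finger repressor, had 2.02, 1.98, 2.20 and 2.27 in the offspring of HOM fathers and 2.33, 2.39, 1.80 and 2.07 in those of HET fathers. The HET father embryos held both the highest and the lowest values. The difference was -0.03 (95% interval -0.35 to 0.29, adjusted p = 0.918, limma), and its direction turned without HOM father replicate 1 or 2, without HET father replicate 1 or 2, and under quantile normalisation. Under median scaling it was -0.22 (adjusted p = 0.164).

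Ets1, an ETS factor of the cranial crest and of endothelium, was read by 2 probes. Probe A_52_P194250 had 0.20, -0.0041, 0.40 and 0.14 in the offspring of HOM fathers and 0.10, 0.21, 0.32 and 0.38 in those of HET fathers. Probe A_52_P232830 had 0.25, 0.14, 0.03 and 0.23 against -0.04, 0.26, -0.23 and 0.23. The groups overlapped on both. The differences were -0.07 (adjusted p = 0.655) and 0.11 (adjusted p = 0.566, limma), which were -0.26 and -0.084 under median scaling. Leaving out HOM father replicate 2 gave -0.0072 on probe A_52_P194250 and 0.11 on probe A_52_P232830. The embryo lowest on one probe, HOM father replicate 2 or HET father replicate 3, was not the lowest on the other. The mean log2 signal of 7 endothelium markers ranged from -0.00037 to 0.30 in the HOM father group and from -0.02 to 0.11 in the HET father group. All 7 were tested, and none of them passed 0.05.

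Of the SoxE factors, Sox9, which acts in early crest, cartilage precursors and the otic placode, had 0.18, 0.11, 0.19 and 0.12 in the offspring of HOM fathers and 0.31, 0.08, -0.02 and 0.09 in those of HET fathers. All 4 HOM father embryos fell between the highest and lowest HET father embryo. The difference was 0.03 (95% interval -0.14 to 0.21, adjusted p = 0.782, limma), and -0.16 under median scaling.

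Sox10, which marks migrating crest and later its glia and pigment cells, had 1.21, 0.30, 1.05 and 0.99 in the embryos of HOM fathers and 1.07, 1.12, 1.42 and 1.42 in those of HET fathers. The HOM father replicate 2 was far below the other 7, and HET father replicates 3 and 4 were the highest. The difference was -0.37, or 1.29-fold lower (95% interval -0.83 to 0.09, adjusted p = 0.229, limma). Without HOM father replicate 2 it was -0.17 (adjusted p = 0.322). It was -0.56 under median scaling (adjusted p = 0.0530) and -0.19 with normexp (adjusted p = 0.502).

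Sox8, the SoxE factor that overlaps with both, was well above background on only 1 of 4 arrays in each group and was not tested. Its values were -6.53, -6.16, -6.92 and -2.24 in the offspring of HOM fathers and -7.58, -7.06, -6.75 and -3.47 in those of HET fathers. The 2 embryos with signal, replicate 4 of each group with processed intensities of 288 and 124, were male and lay at the same position of their slides. Any part of sex or position in this was not tested. Over all probes, 1541 were well above background on exactly 1 array of each group, and 42 of these, Sox8 among them, were so on the 2 arrays numbered 4.

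**Figure D2:**
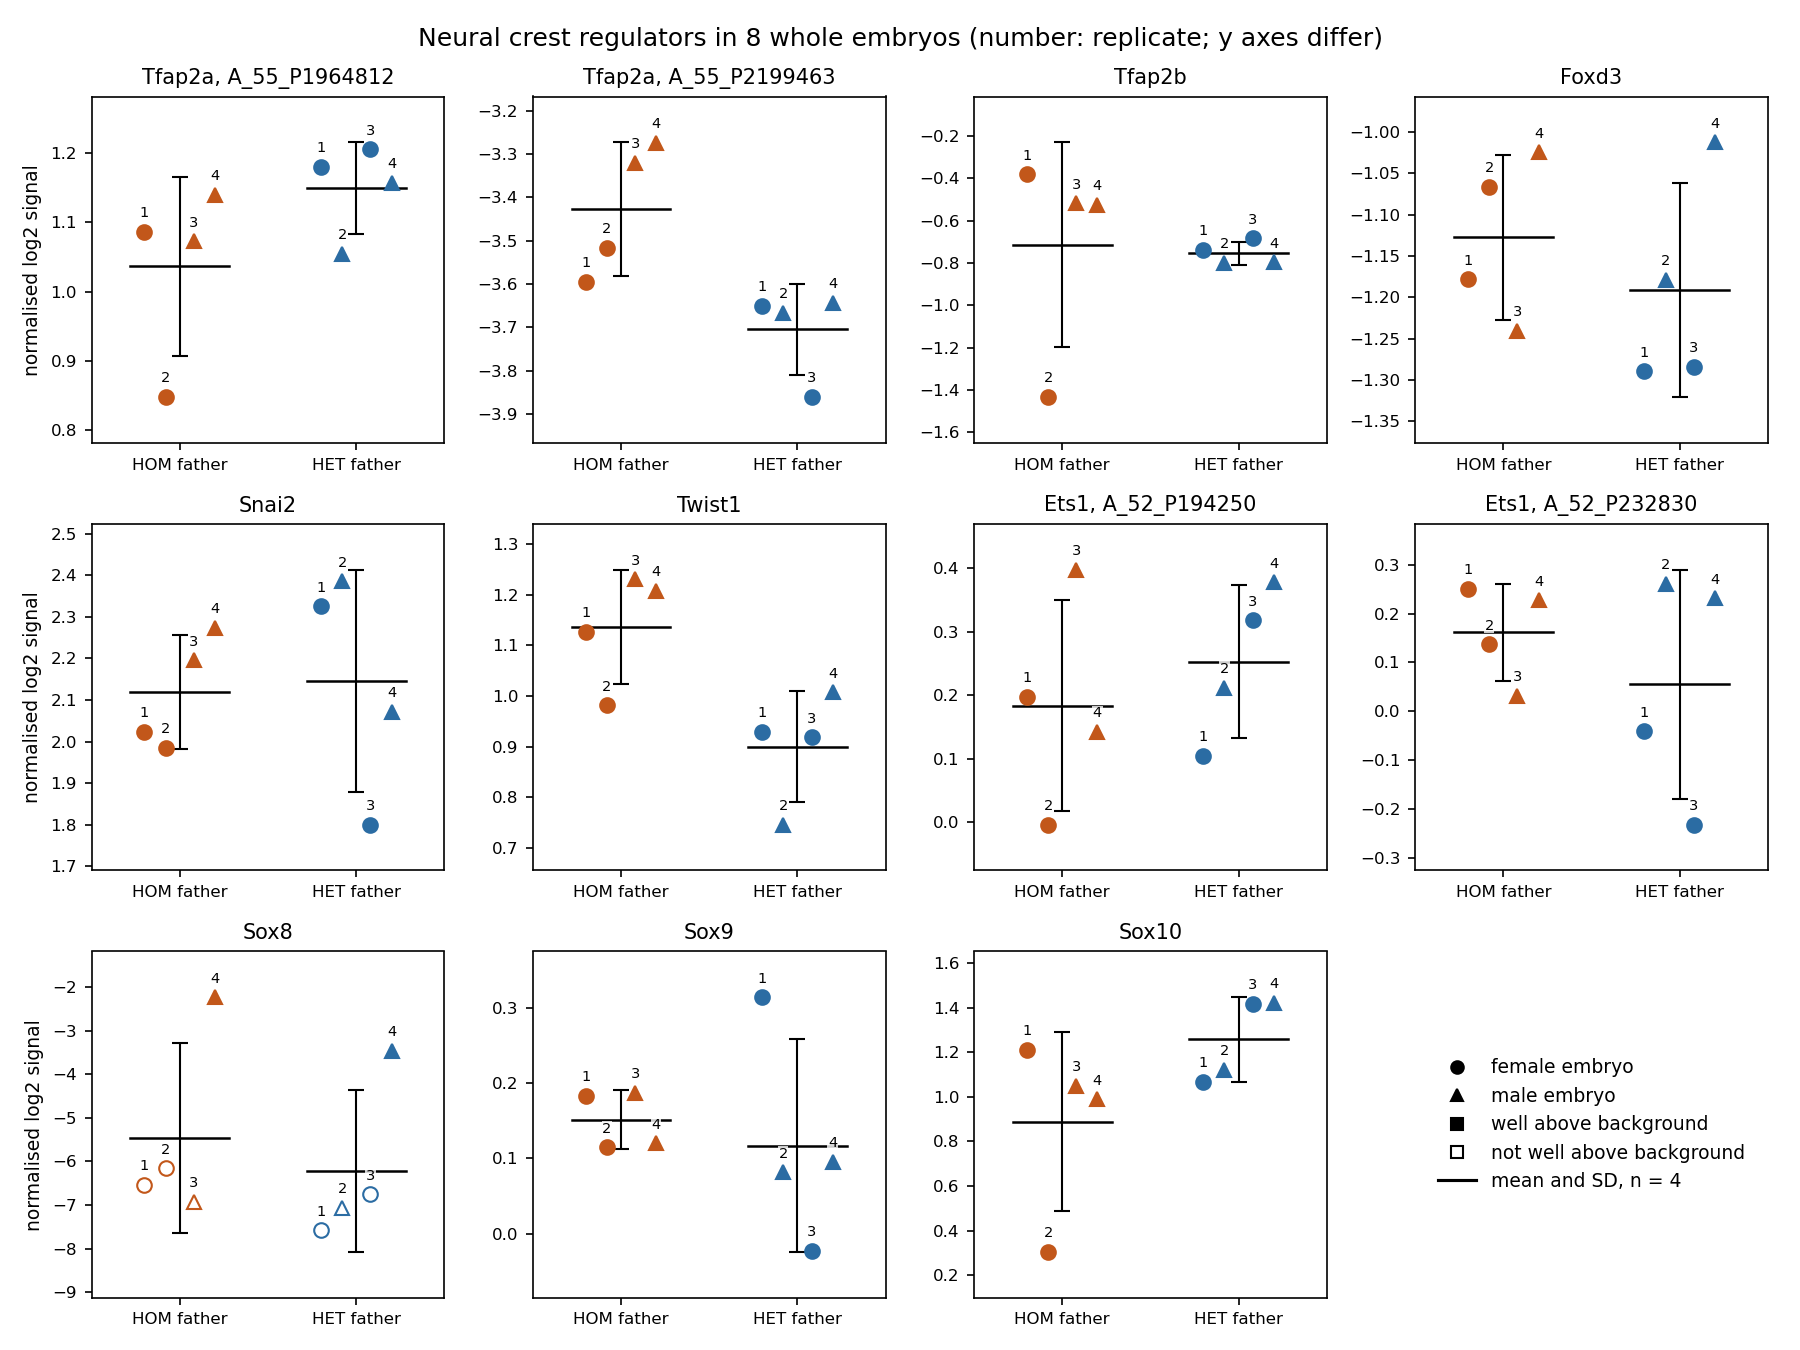
Normalised log2 signal (log2 processed intensity minus the 75th percentile of the array) of all 11 probes of the 9 neural crest regulators in the 4 HOM father and 4 HET father embryos; each panel has its own y axis. Circles are female and triangles male embryos, numbers are replicates, open symbols were not well above background, and lines with bars are the mean and SD. HOM father replicate 2 lies lowest for Sox10 at 0.30 and Tfap2b at -1.43, and Sox8 has signal in replicate 4 of each group alone.

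Some of the spread of these genes lay in 1 embryo. HOM father replicate 2 was the lowest of the 8 for 4 of the 8 tested genes (Tfap2a, Tfap2b, Ets1 and Sox10) and the highest for 0. On the other probes of Tfap2a and Ets1 it was 0.05 and 0.03 above the mean of the 8 embryos. Over all tested probes it was the lowest on 16.1% and the highest on 15.8%. The mean signal of the 8 genes was 0.22 in this embryo, 0.53 to 0.55 in the other 3 of HOM fathers and 0.45 to 0.54 in those of HET fathers. Relative to the mean of the 8 embryos it was lower by 0.77 for Sox10, 0.70 for Tfap2b and 0.25 for Tfap2a, while Foxd3 was 0.09 higher and Twist1 and Sox9 were within 0.04 of that mean. For Snai2 the extremes were HET father replicates 3 and 2, and on the dimmer Tfap2a probe the lowest embryo was HET father replicate 3. The residual SD of Tfap2b and Sox10 was at percentiles 87.0 and 84.8 of all tested probes, whereas that of Foxd3 was at 44.4.

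The same embryo stood apart in the means of the neural tube and trophoblast markers. Its means of paraxial mesoderm markers (-0.51, next -0.44) and surface ectoderm markers (2.27, next 2.34) were the lowest by less. Its mean of endothelium markers (0.06) lay within the range of the others. The mean of the 6 neural tube markers was -0.67 there and between -0.15 and 0.08 in the other 7, and it had the lowest value of the 8 for 4 of them. The widest gap was that of Olig2, a motor neuron progenitor factor read by a dim probe, with -6.31 there and -4.91 to -3.68 elsewhere, while Sox1 (0.79) and Sox2 (0.23) lay within the range of the other embryos. Sox3, a factor of neural progenitors, had 2.85 against 3.17 to 3.57, and Dlx2, a factor of the arch crest, had -2.16 against -1.64 to -0.79. Of the 5 trophoblast markers, 3 were tested. Ascl2, which maintains trophoblast progenitors, had 1.67 in this embryo and -1.98 to -1.29 in the other 7. Prl3d1, a hormone of trophoblast giant cells, had 1.97 there and -3.16 to 1.12 elsewhere, while Hand1, also expressed in the heart and lateral mesoderm, had 3.31 against 2.94 to 3.42. The mean of these 3 markers was 0.04 to 2.31 in the HOM father group and -0.51 to 0.76 in the HET father group; Tpbpa, a marker of spongiotrophoblast, was well above background on 0 of 8 arrays, and Prl2c2 had no probe matched here. The part of trophoblast tissue or of the makeup of the embryo in the low Sox10 and Tfap2b signal was not tested.

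**Figure D3:**
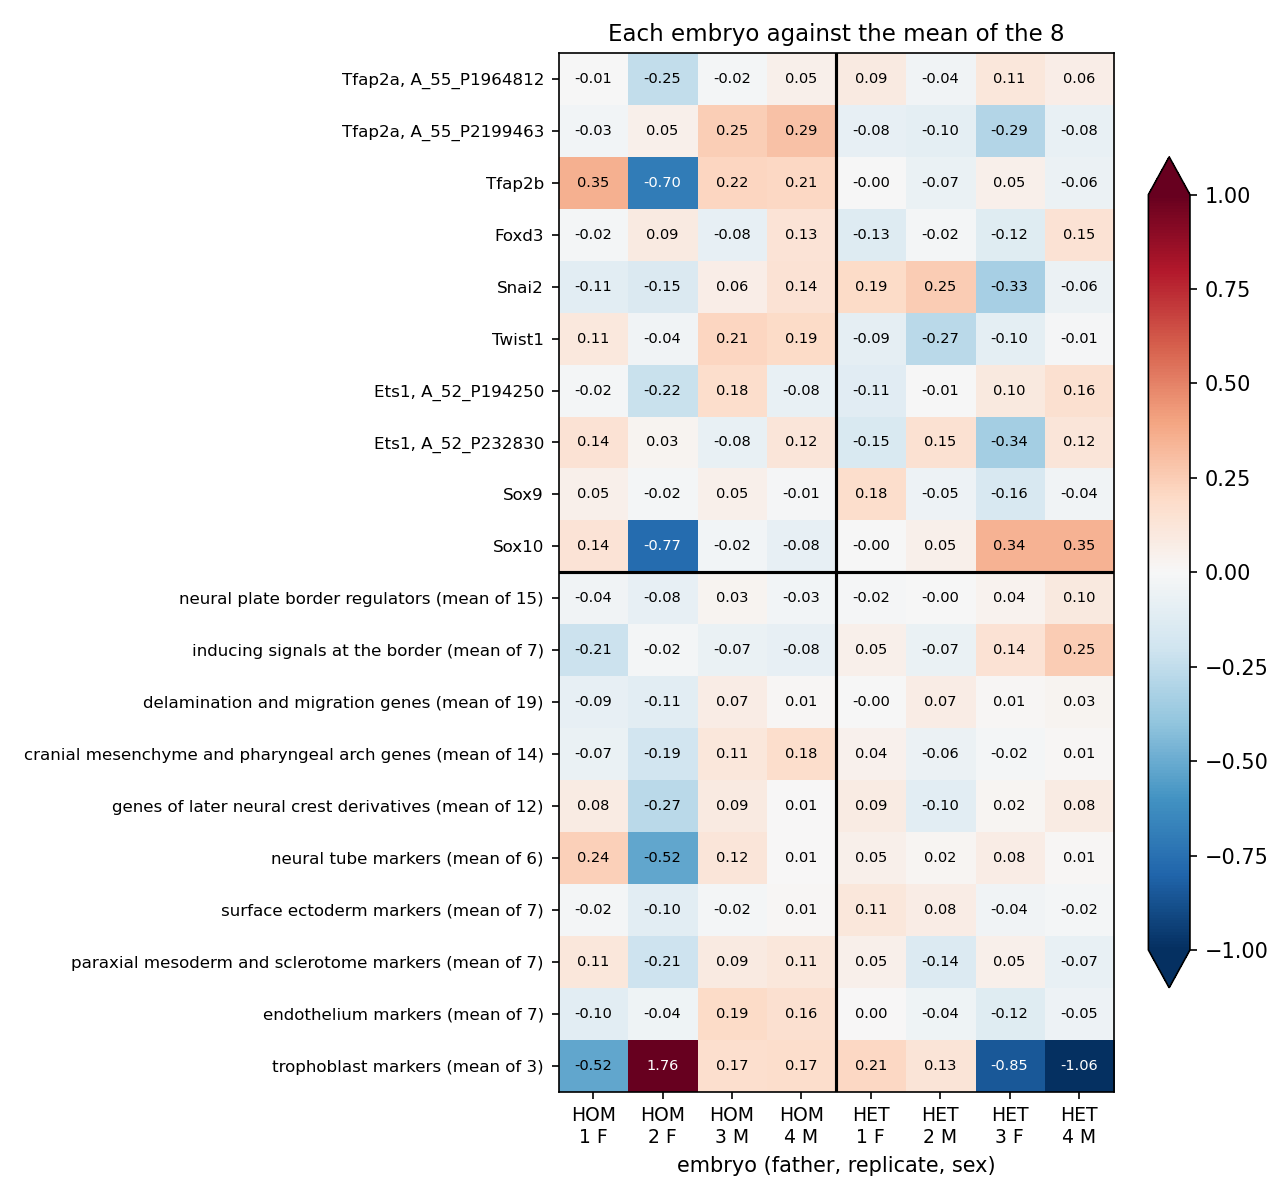
Signal of each embryo minus the mean of the 8 embryos (log2), for the 10 tested probes of the neural crest regulators (above the line) and for the mean of other listed genes and of tissue markers (below it). Red is above and blue below that mean, columns are embryos with father, replicate and sex, and colours saturate at 1 in either direction. HOM father replicate 2 is at -0.77 for Sox10 and -0.70 for Tfap2b, at -0.52 for the neural tube markers and at 1.76 for the trophoblast markers.

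The spread between embryos was shared among a few of the regulators. Within groups, after each group mean was taken off, Sox10 and Tfap2b had r = 0.91, Tfap2a and Tfap2b 0.88 and Tfap2a and Sox10 0.83 across the 8 embryos. Without HOM father replicate 2 the same pairs had 0.47, 0.35 and 0.28 over 7 embryos. Over all 28 pairs of the 8 genes the median was 0.14, and -0.02 without that embryo. All values come from the same arrays and their scaling, so these correlations are descriptions.

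The genes most like Sox10 over the 8 embryos, of 19022 probes compared, were Tagln3 (r = 0.98), Fam222b (0.98), Igfbp5 (0.98), Epc1 (0.97) and Crabp2 (0.97). Each was lowest in HOM father replicate 2, and over the other 7 embryos r was between 0.86 and 0.93. Tagln3, a gene of differentiating neurons, had -1.65 there and -1.37 to -1.14 elsewhere, and Crabp2, a retinoic acid binding protein, had 6.17 against 6.43 to 6.54. The genes most like Foxd3 were Mrgprb1 (r = 0.95), Nfic (0.93), Man2a1 (0.92), Rhox8 (0.91) and Usp9x (0.91). For these r was between 0.91 and 0.95 without that embryo. None of the 10 passed 0.05 by father, where adjusted p was between 0.225 and 0.885 (limma).

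No regulator was called by sex or by the interaction of father and sex. Of the 8 tested genes 0 passed an adjusted p of 0.05 between female and male embryos, where 0.121% of all tested probes did, and the lowest adjusted p was 0.914 (limma). On the probe standing for each gene, 0 had an unadjusted p below 0.05, while the dimmer Tfap2a probe had -0.18 in females relative to males (unadjusted p = 0.0322). The largest difference was that of Snai2, -0.20 in females relative to males. For the interaction 0 passed, where 0.0639% of all tested probes did, with adjusted p of 1.00 for each. On the probe standing for each gene 0 had an unadjusted p below 0.05, while the other Ets1 probe, A_52_P232830, had an interaction of 0.45 (unadjusted p = 0.0268). Tfap2b had a HOM minus HET father difference of -0.20 among females, where the group holds HOM father replicate 2, and 0.28 among males.

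The wider neural crest program was followed in 5 further lists of 75 genes, of which 67 were tested. By father 3 rose and 6 fell at an adjusted p below 0.05, 13.4% of the 67 beside the 21% of all tested probes, and 0 reached 2-fold. Their median change was -0.03. Without HOM father replicate 2 the count was 8, and it ranged from 6 to 8 when each embryo was left out in turn. Under median scaling it was 24, and the changes of Msx1, Bmp4, Snai1 and Kit, given below, were -0.45, -0.51, -0.52 and -0.44. Every HOM father embryo was above every HET father embryo for 5 of the 67 and below for 9. Over all tested probes the shares were 14.1% and 13%. HOM father replicate 1 was the lowest of the 8 embryos for 31.3% of the 67, against 14.5% of all tested probes. For HOM father replicate 2 these were 40.3% and 16.1%. All 6 genes that fell were lowest in HOM father replicate 1. Without it Msx1 differed by -0.21 and Snai1 by -0.24. Any part of array position was not tested.

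Among the regulators of the neural plate border, 15 of 16 genes were tested, with a median change of -0.03. Msx1, a homeobox factor induced by BMP at the border, fell by 0.26 (adjusted p = 0.0415, limma), from 2.14 ± 0.08 with HET fathers to 1.87 ± 0.12 with HOM fathers (SD, n = 4), and every HOM father embryo was below every HET father embryo. The call was lost when any 1 embryo other than HOM father replicate 2 was left out (adjusted p 0.0584 to 0.0976). Hes1, a Notch target that keeps progenitors undifferentiated, rose by 0.29 (adjusted p = 0.0492, limma), but with any 1 embryo other than HET father replicate 1 left out it had an adjusted p of 0.0540 to 0.118, and under median scaling it had 0.10 (adjusted p = 0.369). Pax3, which patterns the dorsal neural tube and its crest, had 1.46 in HOM father replicate 2 and 1.73 to 1.93 in the other 7.

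Of the signals that induce the crest, 7 of 8 genes were tested and the median change was -0.17. Bmp4, a BMP ligand made by the surface ectoderm, fell by 0.32 (adjusted p = 0.0157, limma). It had 3.77, 3.95, 4.05 and 3.98 with HOM fathers and 4.21, 4.21, 4.27 and 4.33 with HET fathers, with no overlap. A second Bmp4 probe was well above background on 0 arrays.

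All 19 genes of delamination and migration were tested, and the median change was -0.05. Itga4, an integrin subunit of migrating crest that binds fibronectin, rose by 0.33 (adjusted p = 0.0104, limma). Efnb1, an ephrin of cranial crest that guides its paths, fell by 0.43 (adjusted p = 0.00937), Snai1, the relative of Snai2, by 0.33 (adjusted p = 0.0445) and Kit, a receptor of pigment cell precursors, by 0.25 (adjusted p = 0.0194). All 4 had no overlap between the groups, as held for 14.1% of all tested probes in the higher and 13% in the lower direction. Snai1 had an adjusted p of 0.0515 to 0.103 without HOM father replicate 2 or 4 or any 1 HET father embryo, and Kit had 0.0537 without HOM father replicate 1 and 0.0514 without replicate 4. Itga4 had 0.14 under median scaling (adjusted p = 0.114) and 0.20 with normexp (adjusted p = 0.0705).

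Of the cranial mesenchyme and arch genes 14 of 16 were tested, with a median change of -0.02. Alx4, a homeobox factor of the frontonasal mesenchyme, rose by 0.90 (adjusted p = 0.000122, limma), from -3.97 ± 0.07 to -3.07 ± 0.06 (SD, n = 4). With normexp background correction the rise was 0.47 on this dim probe (adjusted p = 0.000597). It had -3.14, -3.01, -3.11 and -3.02 with HOM fathers and -3.99, -4.07, -3.93 and -3.90 with HET fathers. The difference is many times the spread within either group, and of the 67 listed genes it was the largest that passed.

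Of the genes of later derivatives 12 of 16 were tested, with a median change of -0.02. Ngfr, the low-affinity neurotrophin receptor found on migrating crest, fell by 0.50 (adjusted p = 0.00759, limma). It had 1.00, 1.29, 1.14 and 1.21 with HOM fathers and 1.51, 1.58, 1.73 and 1.82 with HET fathers, with no overlap.

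**Figure D4:**
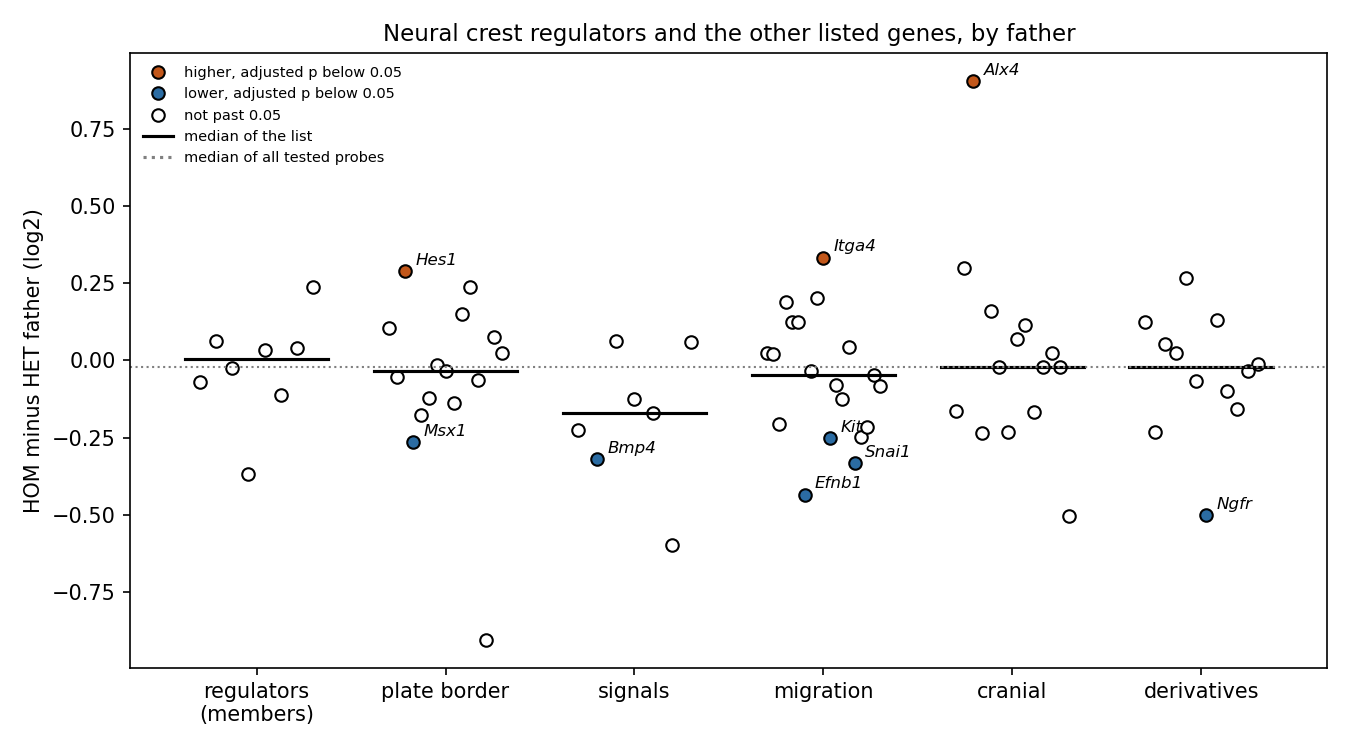
Difference by father (log2, HOM minus HET father) of each tested gene among the neural crest regulators and the 5 other lists. Filled points passed an adjusted p of 0.05 (orange higher, blue lower in the offspring of HOM fathers) and are named, black lines are the medians of the lists, and the dotted line is the median of all tested probes, -0.02. No regulator is filled, 9 of the other 67 genes are, and Alx4 at 0.90 stands highest.

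Among the markers of other tissues, 1 of 7 paraxial mesoderm genes rose by father (Uncx, a somite factor, 0.63, adjusted p = 0.00377, and 0.36 with normexp) and 1 of 4 yolk sac endoderm genes fell (Apoa1, an apolipoprotein, by 0.41, adjusted p = 0.0139, limma). None of the 7 surface ectoderm, 6 neural tube, 4 erythroid or 3 tested trophoblast markers passed 0.05. The same held for the 3 tested markers of notochord and floor plate and the 2 tested otic markers.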

How the data were processed

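RNA (0.2 µg) from single embryos was labelled with Cy3 and hybridised to Agilent SurePrint G3 Mouse GE 8x60K arrays, 1 per embryo. Per the file headers, the deposited values are the authors' Agilent Feature Extraction 11.0.1.1 output: spot intensity on a linear scale, background subtracted in the processed signal, beside other values (flags for well above background, saturation and outliers). A deposited series table holds the same processed intensity within 0.497% and served as an alternative.

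Here control spots and outlier spots were left out and spots of 1 probe were averaged. Signals were taken as log2 of the processed intensity minus the 75th percentile of the array, and probes were tested where at least 4 of 8 arrays had them well above background and no dimmer than the 20th percentile (29718 of 55681). Gene names came from probe accessions through RefSeq, which named 27235 probes. Different probes of a gene were kept apart; in counts of genes, the tested probe with the highest mean stands for the gene. R 4.3.3 with limma 3.58.1 (lmFit, eBayes, two-sided, Benjamini-Hochberg over all tested probes) compared father, sex with father as covariate, and their interaction, after the code was tested on simulated data. Array data carry no read depth; the number of embryos limits the precision.

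The text names all 9 regulators, up to 3 rises and 3 falls of each other list at an adjusted p below 0.05, and the 5 genes most like Sox10 and Foxd3 by Pearson r. Other genes named (Sox3, Dlx2, Olig2, Sox1, Sox2, Pax3, Zic2, Notch1, Twist2 and the trophoblast markers) were chosen after their values were seen. Members and lists were chosen with earlier results of these data known. Alternatives were quantile and median scaling, normexp background correction (offset 50, on the median in place of the mean spot signal, which was not used here), other filters, trend and robust variance, the series table, sex as covariate, a replicate block, the identifier number as a random block and each embryo left out; leaving out both arrays numbered 1, and the counts of the other lists, were added after the data were seen.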

Additional observations from a re-analysis of the deposited data

Results flagged for a closer look

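Of 20 groups of 4 embryos examined among the tested probes of the regulators, 2 held an embryo far from the other 3, where chance gives about 1. Tfap2b had -1.43 in HOM father replicate 2, and -0.52 to -0.38 in the other embryos of HOM fathers. Tfap2a, on its dimmer probe A_55_P2199463, had -3.86 in HET father replicate 3, and -3.67 to -3.64 in the other embryos of HET fathers.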

How the results depend on the processing

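By father, 0 regulators were called at the limits of the study under every alternative run, and by sex and interaction 0 at either limit. At an adjusted p below 0.05 the father count was 1 under median scaling, 1 with trend and robust variance and 0 to 2 with each embryo left out (2 without HOM father replicate 2: Tfap2b and Twist1). Median scaling moved all tested probes to a median of -0.21 and the regulators to -0.19. It took Tfap2a probe A_55_P1964812 to -0.30 (adjusted p = 0.0236) and turned Tfap2b to -0.15, Foxd3 to -0.13, Ets1 probe A_52_P232830 to -0.084 and Sox9 to -0.16. Normexp turned Foxd3 to -0.026, Snai2 to 0.027, Ets1 probe A_52_P194250 to 0.040 and Sox9 to -0.0026, and quantile normalisation turned Snai2 to 0.018. With each embryo left out Tfap2b ranged from -0.071 to 0.28, Snai2 from -0.14 to 0.054 and Sox9 from -0.012 to 0.10. Without both arrays numbered 1, Tfap2b was -0.066 and Snai2 0.066. The count of the other listed genes, 9, was 24 under median scaling, 3 with no filter on dim probes, which tested 55681 probes, and 5 with the replicate block. Of the genes named from them and from the marker lists, Alx4, Efnb1, Ngfr and Uncx passed 0.05 under all 19 alternatives, Bmp4 under 18, Apoa1 under 16, Itga4 and Kit under 15, Snai1 under 7 and Hes1 and Msx1 under 6, with 0 reversed. Causes of these changes were not tested.

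Deviations of same-numbered embryos from their group means had r = 0.19, -0.09, -0.13 and 0.15 for numbers 1 to 4. The value was above 0 for numbers 1 and 4 and below 0 for 2 and 3, so the numbers were not taken as pairs. Any part of slide position in these values was not tested. With the replicate block, 0 regulators passed either limit and 232 of all tested probes were called at the limits of the study, against 376 without it. Of all tested probes called at those limits, 368 were higher and 8 lower, and 222 and 40 under median scaling.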

Other observations

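The largest differences by father in the other lists that did not pass 0.05 were these. Zic2, a zinc finger factor of the dorsal neural tube, had -1.63, -2.42, -1.22 and -2.05 with HOM fathers and -1.60, -0.94, -0.52 and -0.65 with HET fathers, a difference of -0.90 (adjusted p = 0.0804, limma). HET father replicates 2, 3 and 4 were above every embryo of HOM fathers, and HET father replicate 1 was not. Notch1, a receptor of cell fate choice, differed by -0.60 (adjusted p = 0.234). Twist2, the relative of Twist1, differed by -0.50 (adjusted p = 0.250, limma). Every HOM father embryo was below every HET father embryo, as on 13% of all tested probes. HOM father replicate 1 had -0.37 where the other 7 had 0.88 to 1.18.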
